A study of Mus musculus with 6 samples.

Results

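The 10 genes described here encode 7 Toll-like receptors (Tlr1, Tlr2, Tlr3, Tlr4, Tlr5, Tlr7 and Tlr9), the lipopolysaccharide co-receptors Cd14 and Ly96, and the adaptor Myd88, and they were chosen by gene symbol from a table of 21374 genes. The table came from bulk RNA-seq of distal colon next to tumours, with 3 libraries labelled Otud1-/- and 3 labelled wild type. Otud1 encodes a deubiquitinase, an enzyme that removes ubiquitin from other proteins. Both genotypes were male C57BL/6 mice that had received the colon carcinogen azoxymethane (AOM) on day 0 at 6 weeks of age, then 3 cycles of 1.5% dextran sulfate sodium (DSS), a polymer that injures the colon lining, for 4 days and water for 14 days. Colons were collected on day 81, when the mice were 18 weeks old, so no library came from an untreated colon. How the Otud1 allele was made is not stated in the sources used here, nor whether each library was 1 animal, and a p-value therefore reflects only how these libraries vary.

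Toll-like receptors sense microbial molecules in macrophages, dendritic cells, B cells and the gut epithelium. Tlr4 binds lipopolysaccharide with Ly96 (also called MD-2) after Cd14 has handed it over, Tlr2 binds bacterial lipoproteins in a pair with Tlr1 or Tlr6, and Tlr5 binds flagellin. Tlr3, Tlr7 and Tlr9 sit in endosomes and bind double-stranded RNA, single-stranded RNA and unmethylated CpG DNA, and apart from Tlr3 these receptors signal through Myd88 to NF-kB.

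The Otud1 transcript went against its labels. It had 141, 150 and 208 normalised read counts in the libraries labelled Otud1-/-, against 111, 45.1 and 48.9 in those labelled wild type, which is higher by 1.37 ± 0.35 on the log2 scale (SE; adjusted p = 0.0934 in limma with the Benjamini-Hochberg method; exact permutation p = 0.1, two-sided). All 3 libraries labelled Otud1-/- were above the 3 labelled wild type, so every direction below is between libraries as labelled. The labels do not say which bases of the gene were deleted, so reads from a remaining stretch cannot be told apart from reads of a whole gene. An exact permutation test of 3 against 3 libraries cannot give a p below 0.1.

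The libraries held 15300937 to 19406407 reads. Along the leading principal component, which held 38.8% of the variance, Otud1-/- 1 lay at 83.3 and wild type 1 at -86.5, with the other 4 libraries between -25.8 and 28.2. Epithelial markers showed the labelled tissue: Epcam had 29230 to 33565 normalised counts in Otud1-/- libraries and 37318 to 42135 in wild type libraries. Over all 21281 genes tested, limma called 202 (0.949%) at an adjusted p under 0.05, of which 70.3% were lower in Otud1-/-. That share was 24.8% with libraries scaled to total reads, 60.1% after quantile normalisation, 10.7% with scaling to epithelial markers, 1.33% with scaling to macrophage and monocyte markers, 2.74% with scaling to B cell markers and 99.3% with scaling to smooth muscle markers.

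None of the 10 genes passed limma's test (0 of 10 called, beside 0.949% of all genes tested). At an unadjusted p under 0.05, 6 of the 10 were lower in Otud1-/- (Tlr1, Tlr4, Tlr9, Cd14, Ly96 and Myd88) and none was higher, beside 9.97% of all genes tested that were lower and 19.5% that passed in either direction at that level. In either direction, the number of the 10 at that level was 2 with scaling to total reads, beside 4925 of all 21281 genes tested. It was 4 after quantile normalisation (3476 of all genes) and 0 with the epithelium list (4993). With the macrophage and monocyte list it was 1 (11484 of all genes), which was Tlr2, higher in Otud1-/-. The B cell list gave 0 (1950 of all genes) and the smooth muscle list 10 (13228). On the recovered read counts edgeR called 0 of the 10, beside 0.7% of all genes, and DESeq2 called 2, Tlr4 and Cd14, both lower, beside 8.4% of the 16800 genes to which it gave an adjusted p (4.42% lower). At an adjusted p under 0.1 in limma, Tlr4 was the only one of the 10, beside 4.12% of all genes. The log2 change (Otud1-/- minus wild type) was negative for 8 of the 10 and positive for Tlr2 and Tlr5, beside 48.3% negative among all genes tested, with a median of -0.52 for the 10 and 0.02 for all. For 5 genes, Tlr4, Tlr9, Cd14, Ly96 and Myd88, all 3 Otud1-/- libraries lay below all 3 wild type libraries, beside 13.3% of all genes that lay below without overlap and 26.3% without overlap in either direction. In bulk tissue, fewer cells of a type and less RNA per cell cannot be told apart.

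**Figure D1:**
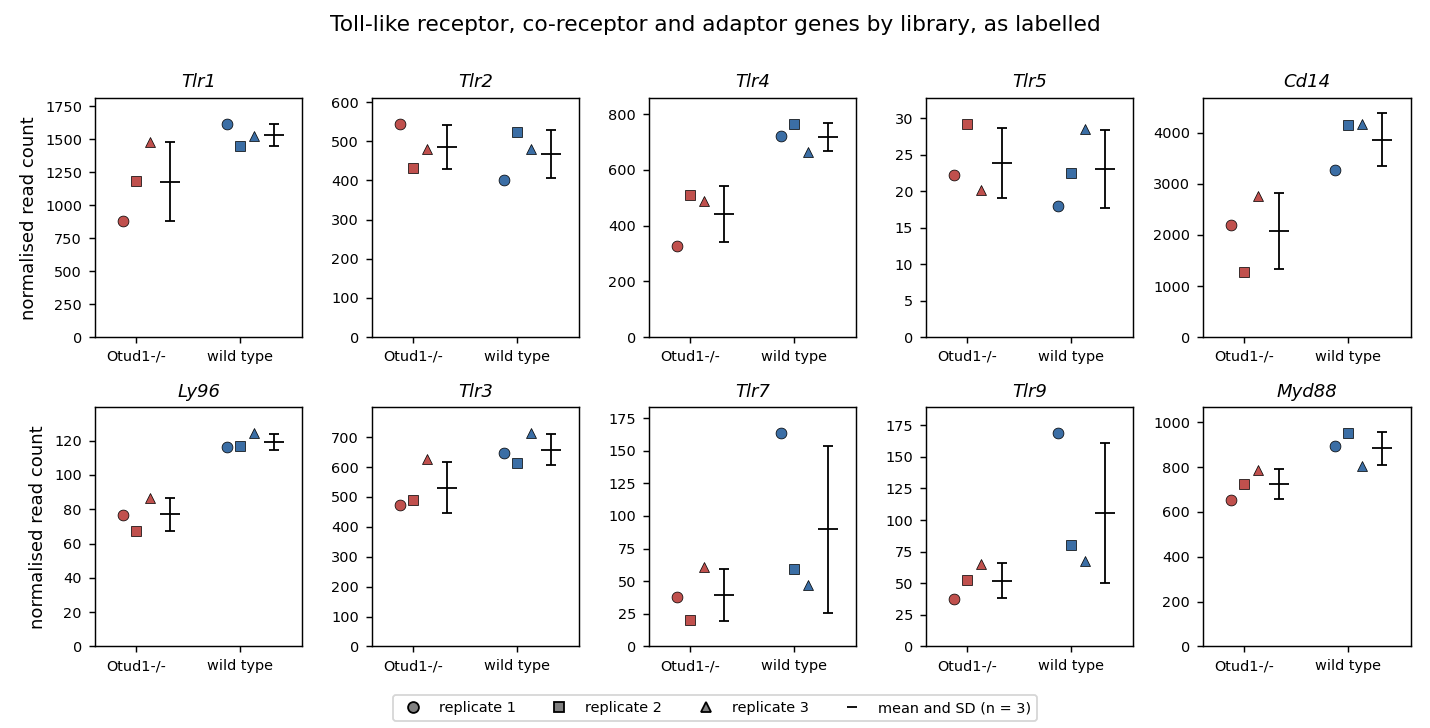
Normalised read counts (vertical axes, linear, each from 0) of the 10 genes in the 3 libraries labelled Otud1-/- (red) and the 3 labelled wild type (blue), with the replicate number as the marker shape and bars for the mean and SD (n = 3). The genotypes do not overlap for Tlr4, Tlr9, Cd14, Ly96 and Myd88, and wild type 1 stands above the other libraries for Tlr7 and Tlr9.

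Among the lipopolysaccharide receptors, Tlr4 (chr4:66827584-66930284, plus strand, GRCm38) had 328, 510 and 489 normalised read counts in Otud1-/- libraries, against 723, 766 and 664 in wild type libraries. All 3 Otud1-/- values were below the lowest wild type value, and Otud1-/- 1 was the lowest. The log2 change was -0.72 ± 0.18 (SE; 95% interval -1.12 to -0.32; limma adjusted p = 0.0858), which missed the threshold in limma and in edgeR (adjusted p = 0.0933) and passed it in DESeq2 (adjusted p = 0.0201).

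Cd14, the surface protein that passes lipopolysaccharide to Tlr4, lies on chromosome 18. It had 2191, 1272 and 2763 normalised read counts in Otud1-/- libraries, against 3266, 4154 and 4172 in wild type libraries. The genotypes did not overlap, and here Otud1-/- 2 rather than Otud1-/- 1 was the lowest library. The log2 change was -0.96 ± 0.28 (SE; 95% interval -1.62 to -0.30; limma adjusted p = 0.138), with an adjusted p of 0.155 in edgeR and 0.0182 in DESeq2.

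Ly96, the soluble partner that forms the lipid pocket of the Tlr4 complex (chr1:16688051-16709611, plus strand), had 76.8, 67.5 and 86.8 normalised read counts in Otud1-/- libraries, against 116, 117 and 124 in wild type libraries. The wild type libraries lay within a narrow range above all Otud1-/- libraries. Its log2 change was -0.63 ± 0.21 (SE; limma adjusted p = 0.160). Lbp, which carries lipopolysaccharide to Cd14, had 107, 60.8 and 248 normalised read counts in Otud1-/- libraries, against 747, 734 and 482 in wild type libraries, a log2 change of -2.44 ± 0.51 (SE; limma adjusted p = 0.0885) with no overlap.

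Ratios within a library set the parts of this complex against each other, and those of the genotypes overlapped. The log2 ratio of Cd14 to Tlr4 averaged 3.87 ± 0.76 in Otud1-/- libraries and 4.10 ± 0.24 in wild type libraries (SD, n = 3 each; exact permutation p = 0.9; difference -0.24). The log2 ratio of Ly96 to Tlr4 averaged -0.04 ± 0.41 in Otud1-/- libraries and -0.14 ± 0.15 in wild type libraries (SD, n = 3 each; exact permutation p = 0.8). With 5 such ratios tested among partner genes, the lowest Benjamini-Hochberg adjusted value was 0.5.

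Tlr2 (chr3:83836272-83841767, minus strand), the lipoprotein receptor, had 544, 432 and 479 normalised read counts in Otud1-/- libraries, against 402, 523 and 479 in wild type libraries. The genotypes overlapped, with the highest value in Otud1-/- 1 and the lowest in wild type 1. The log2 change was 0.05 ± 0.15 (SE; limma adjusted p = 0.879), with a 95% interval of -0.28 to 0.39 under the deposited scaling. The RefSeq window from 250 bases before to 50 after its RefSeq start is printed for its matches to the consensus of NF-kB, the factor to which these receptors signal (GRCm38.p6, chr3:83841559-83841858, minus strand, 5′ to 3′, matches in capitals). Part of this window lies inside the gene span given above. 3 matches, 2 of which overlap each other, begin at positions -173, -172 and -8 from the start. The NF-kB consensus, searched on both strands, occurs in 4.51% of 32851 windows of this length.
Tlr2: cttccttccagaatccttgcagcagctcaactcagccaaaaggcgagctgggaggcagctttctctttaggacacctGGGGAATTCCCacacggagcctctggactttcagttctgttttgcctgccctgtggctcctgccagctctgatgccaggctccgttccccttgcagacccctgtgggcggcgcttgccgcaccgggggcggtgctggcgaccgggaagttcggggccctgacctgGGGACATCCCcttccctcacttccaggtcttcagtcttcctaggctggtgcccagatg

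Tlr1 (chr5:64924679-64933563, minus strand), which pairs with Tlr2, had 877, 1181 and 1480 normalised read counts in Otud1-/- libraries, against 1618, 1453 and 1529 in wild type libraries. Otud1-/- 3 lay within the wild type range and the other Otud1-/- libraries below it. This gave a log2 change of -0.41 ± 0.18 (SE; limma adjusted p = 0.245), which was -0.21 without Otud1-/- 1. Tlr6, the other partner of Tlr2 and the neighbouring near copy of Tlr1, was far lower, with 40.1, 28.1 and 30.3 normalised read counts in Otud1-/- libraries against 75.9, 62.1 and 41.8 in wild type libraries (log2 change -0.82 ± 0.32, SE; limma adjusted p = 0.204). How reads shared by Tlr1 and Tlr6 were counted is not given in the sources used here, so the split between them is uncertain. The log2 ratio of Tlr6 to Tlr2 averaged -4.16 ± 0.11 in Otud1-/- libraries and -3.28 ± 0.55 in wild type libraries (SD, n = 3 each; exact permutation p = 0.1, adjusted over 5 ratios 0.5). For Tlr1 to Tlr2 it averaged 1.10 ± 0.50 in Otud1-/- libraries and 1.57 ± 0.27 in wild type libraries (SD, n = 3 each; exact permutation p = 0.2).

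Tlr5, the flagellin receptor (chr1:182954788-182976044, plus strand), was the lowest of the 10 per length. It had 22.2, 29.2 and 20.2 normalised read counts in Otud1-/- libraries, against 17.9, 22.6 and 28.6 in wild type libraries, and the genotypes overlapped. Its log2 change was 0.06 ± 0.34 (SE; limma adjusted p = 0.949), and the 17 reads behind its lowest value have an exact 95% Poisson interval of 9.90 to 27.2 reads. That interval covers counting error only and takes each read as a separate molecule.

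Of the endosomal receptors, Tlr3 (chr8:45395665-45411080, minus strand), which signals through Ticam1 rather than Myd88, had 474, 490.5 and 629 normalised read counts in Otud1-/- libraries, against 647, 613 and 714 in wild type libraries. Otud1-/- 3 lay within the wild type range, with a log2 change of -0.32 ± 0.14 (SE; limma adjusted p = 0.263). The strand setting of the counting is not given in the sources used here, and Tlr3 overlaps an antisense transcript (Gm45542), so their reads may be mixed.

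Tlr7 (chrX:167304929-167330558, minus strand), the single-stranded RNA receptor, had 37.5, 20.2 and 60.5 normalised read counts in Otud1-/- libraries, against 164, 59.3 and 46.9 in wild type libraries. Wild type 1 stood far above the other 5 libraries, which overlapped. It had a log2 change of -1.08 ± 0.55 (SE; limma adjusted p = 0.325), and it was -0.54 without wild type 1.

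Tlr9 (chr9:106222598-106226883, plus strand), the CpG DNA receptor, had 37.5, 52.9 and 65.6 normalised read counts in Otud1-/- libraries, against 169, 79.9 and 67.3 in wild type libraries. The genotypes did not overlap, though only by the small gap between Otud1-/- 3 and wild type 3, and wild type 1 was again the highest. The log2 change was -0.92 ± 0.38 (SE; limma adjusted p = 0.222), and it was -0.52 without wild type 1. The Tlr9 window is shown for its matches to PU.1 (GAGGAAG, on both strands, in 13.6% of windows), a factor of myeloid and B cells, at positions -112 and 11, and to AP-1 (TGANTCA, in 7.81%) at -58 (GRCm38.p6, chr9:106222348-106222647, plus strand, 5′ to 3′, matches in capitals).
Tlr9: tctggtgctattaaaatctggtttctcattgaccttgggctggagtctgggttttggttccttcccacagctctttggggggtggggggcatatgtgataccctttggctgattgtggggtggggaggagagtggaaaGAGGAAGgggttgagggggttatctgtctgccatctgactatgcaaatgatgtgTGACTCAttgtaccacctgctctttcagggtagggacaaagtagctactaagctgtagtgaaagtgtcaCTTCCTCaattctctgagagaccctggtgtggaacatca

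The log2 ratio of Tlr7 to Tlr9 averaged -0.72 ± 0.74 in Otud1-/- libraries and -0.56 ± 0.25 in wild type libraries (SD, n = 3 each; exact permutation p = 0.9). Tlr8, the neighbour of Tlr7 on the X chromosome, had 7.68, 12.4 and 6.05 normalised read counts in Otud1-/- libraries, against 25.3, 24.5 and 23.5 in wild type libraries. Its genotypes did not overlap, with a log2 change of -1.44 ± 0.39 (SE; limma adjusted p = 0.106). Unc93b1, the chaperone that carries the endosomal receptors to their compartment, had 1377, 1730 and 1777 normalised read counts in Otud1-/- libraries, against 3352, 1999 and 2260 in wild type libraries (log2 change -0.61 ± 0.20, SE; limma adjusted p = 0.15). Tlr6, Tlr8 and Unc93b1 were singled out after their values were seen.

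Myd88 (chr9:119335934-119341411, minus strand), the adaptor of every receptor here except Tlr3, had 655, 726 and 789 normalised read counts in Otud1-/- libraries, against 893, 952 and 805 in wild type libraries. The genotypes did not overlap, but Otud1-/- 3 and wild type 3 lay close together. Its log2 change was -0.29 ± 0.12 (SE; limma adjusted p = 0.238). Myd88 shares 1736 bases with the antisense gene Acaa1a, which averaged 1980.5 normalised read counts in Otud1-/- libraries and 2270.1 in wild type libraries (log2 change -0.19), so without a known strand setting part of the reads of both genes cannot be told apart. The annotated protein-coding gene Slc22a14 overlaps Myd88 on the same strand by 5478 bases, the whole length of Myd88, and how reads in that overlap were assigned is not stated. The window around the RefSeq start used for Myd88 lies wholly inside the gene span given above, so it is not upstream of that span. It is shown for its match to the interferon response core (ISRE core, both strands, in 3.44% of windows) at position -40 from that RefSeq start (GRCm38.p6, chr9:119339969-119340268, minus strand, 5′ to 3′, match in capitals).
Myd88: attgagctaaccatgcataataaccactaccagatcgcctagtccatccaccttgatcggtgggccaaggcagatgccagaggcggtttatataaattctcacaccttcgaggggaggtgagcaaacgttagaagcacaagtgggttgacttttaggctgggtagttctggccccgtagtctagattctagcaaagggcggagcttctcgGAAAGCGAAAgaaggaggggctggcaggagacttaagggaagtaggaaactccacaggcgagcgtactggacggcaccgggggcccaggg

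RefSeq windows were found for 6 of the 10 genes (7 windows, since Tlr1 has 2). Besides those printed, 1 Tlr1 window held a PU.1 match at position -23 and the Tlr3 window an NF-kB match at -211, and the other Tlr1 window and that of Tlr5 held no match to the 4 motifs. Tlr2, whose log2 change was near 0, and Tlr3, at -0.32, were the genes with an NF-kB match. Windows were not found for Cd14, Tlr4, Tlr7 and Ly96.

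Per kilobase of exon, Cd14 was the most abundant transcript, with 1198 ± 434 normalised read counts in Otud1-/- libraries and 2231 ± 299 in wild type libraries (SD, n = 3 each, here and in the levels that follow). Tlr1 came next at 353 ± 90.1 in Otud1-/- and 458 ± 24.7 in wild type, then Myd88 at 281 ± 26.0 in Otud1-/- and 343 ± 28.8 in wild type. Neighbouring genes in the middle of the order lay close: Tlr2 had 161 ± 18.7 in Otud1-/- and 155 ± 20.3 in wild type, and Tlr3 had 102 ± 16.3 in Otud1-/- and 126 ± 9.84 in wild type. Tlr4 and Ly96 did not differ from each other beyond their spread, at 79.6 ± 17.9 and 75.4 ± 9.45 per kilobase in Otud1-/- and 129 ± 9.19 and 117 ± 4.58 in wild type. In both genotypes the spread of Tlr3 overlapped that of Tlr4 too, and in Otud1-/- libraries that of Tlr1 reached that of Myd88. Tlr9 had 15.0 ± 4.04 in Otud1-/- and 30.3 ± 15.9 in wild type, Tlr7 had 9.66 ± 4.95 in Otud1-/- and 22.0 ± 15.7 in wild type, and Tlr5 had 4.98 ± 0.994 in Otud1-/- and 4.81 ± 1.11 in wild type, with Tlr7 and Tlr9 within each other's spread.

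**Figure D2:**
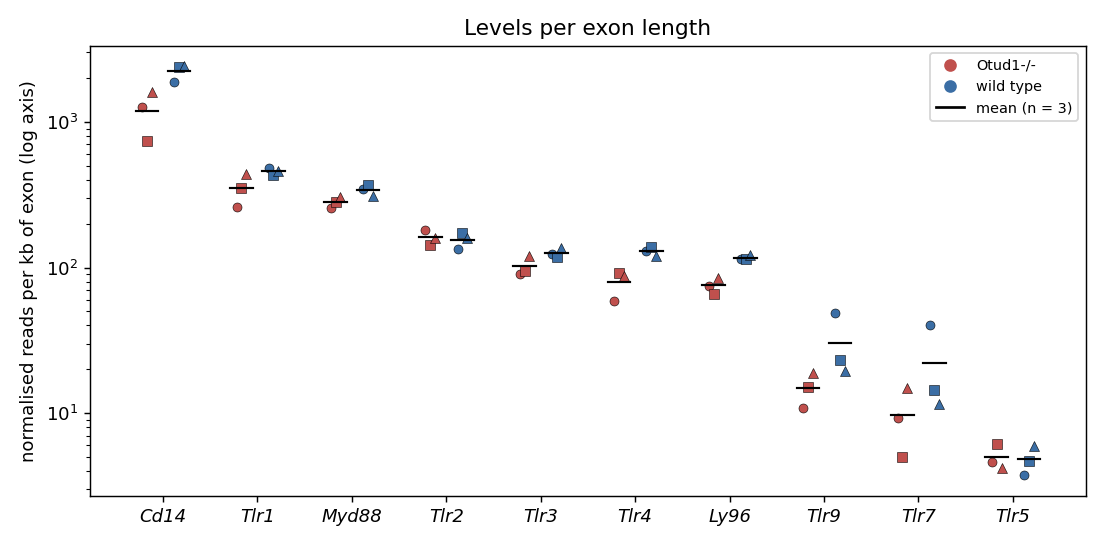
Level of each gene as normalised read counts per kilobase of exon (log axis) in the libraries labelled Otud1-/- and wild type, as points per library (marker shape is the replicate number) with a bar for the mean (n = 3). Cd14 is highest and Tlr5 lowest in both genotypes, and Tlr4 and Ly96 lie side by side.

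The rest of the pathway was read from 5 gene lists, given here with their counts in limma, and no list gene was called higher in Otud1-/-. Of the 11 other receptors and co-receptors tested, 0 were called (0.667% of all genes were called lower) and 7 were lower at an unadjusted p under 0.05 (9.97% of all genes). DESeq2 called 3 lower (4.42%) and edgeR 0, 10 had a negative log2 change (48.3%), and the median was -0.90. The lowest p among them, below that of Lbp, was that of Itgam, the integrin subunit of complement receptor 3 on myeloid cells. Itgam had 75.1, 68.6 and 90.8 normalised read counts in Otud1-/- libraries, against 141, 242 and 184 in wild type libraries (log2 change -1.24 ± 0.25, SE; limma adjusted p = 0.0551), without overlap.

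Of the 10 genes for receptor chaperones and trafficking, 0 were called by limma or edgeR and 7 were lower at an unadjusted p under 0.05 (9.97% of all genes). DESeq2 called 3 lower (4.42%), and the median log2 change was -0.36. The lowest p-values were those of Lgmn and Ctss, proteases that trim the endosomal receptors. Lgmn had 1648, 2011 and 1479 normalised read counts in Otud1-/- libraries, against 2389, 2634 and 2485 in wild type libraries (log2 change -0.56; limma adjusted p = 0.0793). Ctss had 3496, 5436 and 4977 in Otud1-/- libraries, against 7524, 6938 and 7623 in wild type libraries (log2 change -0.69; limma adjusted p = 0.0828). For both genes every Otud1-/- library was below every wild type library.

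Of the 24 adaptors and kinases, 0 were called by limma or edgeR and 4 were lower at an unadjusted p under 0.05, beside 9.97% of all genes. DESeq2 called 1 lower, near the 4.42% of all genes. The median log2 change was -0.18 (-0.070 without wild type 1). Ticam1 (TRIF), the adaptor of Tlr3, had 516, 773 and 613 normalised read counts in Otud1-/- libraries, against 1040, 852 and 919 in wild type libraries (log2 change -0.58; limma adjusted p = 0.109). Ikbke, a kinase downstream of Ticam1, had 849, 984 and 921 in Otud1-/- libraries, against 1238, 1244 and 1183 in wild type libraries (log2 change -0.41; limma adjusted p = 0.0943). Neither gene's genotypes overlapped.

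Of the 16 pathway inhibitors 1 was called by limma (0.949% of all genes), 0 by edgeR (0.7%) and 4 by DESeq2 (8.4%). At an unadjusted p under 0.05, 6 were lower (9.97% of all genes), and the median log2 change was -0.36. Tnip3, which restrains NF-kB signalling together with Tnfaip3, fell to 1068, 1127 and 1270 normalised read counts in Otud1-/- libraries, against 1750, 1830 and 1653 in wild type libraries (log2 change -0.60 ± 0.11, SE; limma adjusted p = 0.0477). Its genotypes lay well apart, but the adjusted p was 0.0526 in edgeR, and it was 0.00224 in DESeq2.

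Of the 17 genes induced by these receptors 3 were called (0.949% of all genes), all lower in Otud1-/-, while edgeR called 2 (0.7%) and DESeq2 5 (8.4%). Of all genes, 9.97% were lower at an unadjusted p under 0.05 and 48.3% had a negative log2 change. Of the 17, 5 were lower and none higher at an unadjusted p under 0.05, 10 log2 changes were negative and 7 positive, and the median was -0.16 (-0.46 without Otud1-/- 1 and -0.056 without wild type 2). Nos2, the inducible nitric oxide synthase, fell to 1971, 1099 and 1758 normalised read counts in Otud1-/- libraries, against 6490, 6340 and 5637 in wild type libraries (log2 change -1.98 ± 0.21, SE; limma adjusted p = 0.00857). Il1b, a cytokine of activated myeloid cells, fell to 497, 394 and 433 in Otud1-/- libraries, against 719, 858 and 738 in wild type libraries (log2 change -0.81 ± 0.14, SE; limma adjusted p = 0.0380). Nfkbiz, an induced cofactor of NF-kB, fell to 2446, 3046 and 2987 in Otud1-/- libraries, against 4384, 4894 and 4189 in wild type libraries (log2 change -0.67 ± 0.13, SE; limma adjusted p = 0.0493). Its adjusted p was 0.0558 in edgeR and 0.00131 in DESeq2. The genotypes overlapped for none of the 3. The adjusted p of Nos2 was 0.0693 without wild type 2 and 0.0685 without wild type 3, that of Il1b missed the threshold without any 1 of wild type 1, 2 or 3 or Otud1-/- 3 (0.0830 to 0.162), and that of Nfkbiz likewise (0.0860 to 0.173). That of Tnip3 missed it whichever library was left out (0.0537 to 0.173). Of the 4 called list genes, Nos2 was the only one that still passed when libraries were scaled by the epithelium list or by total reads.

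**Figure D3:**
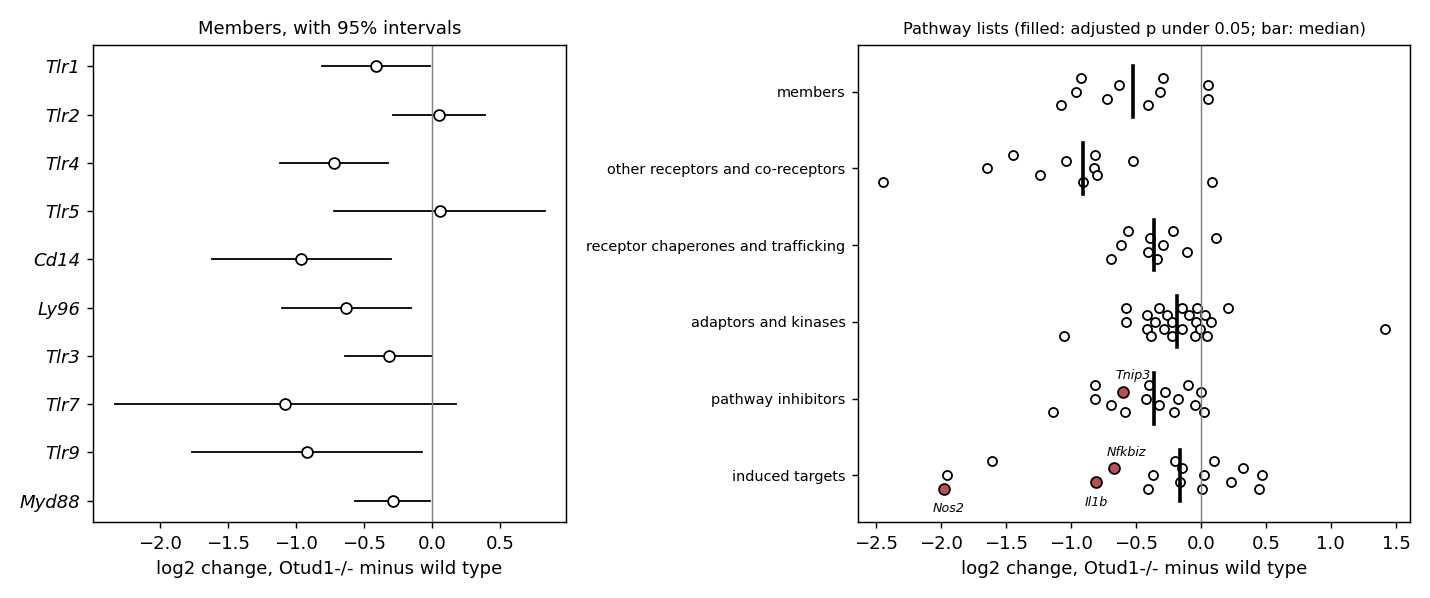
Log2 changes (Otud1-/- minus wild type, in log2 units of the normalised count with 1 added) of the 10 genes with 95% intervals on the left, and of the genes of the pathway lists on the right, where filled points passed an adjusted p under 0.05 in limma and bars are medians. The filled points are Tnip3, Nos2, Il1b and Nfkbiz, all below 0, and no receptor is filled.

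Markers of other cell types were read beside these genes. Of 15 macrophage and monocyte markers all had negative log2 changes (median -0.64), and limma and edgeR called 0. At an unadjusted p under 0.05, 11 were lower (9.97% of all genes), and DESeq2 called 7 lower (4.42%). Their summed normalised read counts ranged from 9004 to 12118 in Otud1-/- libraries and from 13896 to 17670 in wild type libraries, and none was at 0 in any library. Adgre1 (F4/80) had 88.8, 165 and 138 normalised read counts in Otud1-/- libraries, against 259, 438 and 236 in wild type libraries. Csf1r had 507, 831 and 541 in Otud1-/- libraries, against 1162, 1164 and 923 in wild type libraries. The genotypes overlapped for neither, and the part of this list in the values of Cd14, Tlr4 and Ly96 was not tested. The ratios given next describe levels and do not test it.

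With each gene's log2 level taken relative to the mean log2 level of the macrophage and monocyte list in the same library, Tlr4 stood at 0.52 ± 0.26 in Otud1-/- libraries and 0.53 ± 0.04 in wild type libraries (SD, n = 3 each; exact permutation p = 1). Cd14 stood at 2.70 ± 0.84 in Otud1-/- libraries and 2.95 ± 0.20 in wild type libraries (exact permutation p = 0.9), and Ly96 at -1.97 ± 0.44 in Otud1-/- libraries and -2.05 ± 0.13 in wild type libraries (exact permutation p = 0.8). Tlr2 stood at 0.68 ± 0.44 in Otud1-/- libraries and -0.10 ± 0.16 in wild type libraries, Tlr5 at -3.62 ± 0.10 in Otud1-/- libraries and -4.40 ± 0.35 in wild type libraries, and Myd88 at 1.25 ± 0.29 in Otud1-/- libraries and 0.82 ± 0.05 in wild type libraries (exact permutation p = 0.1 each). For these 3 genes all Otud1-/- libraries were above all wild type libraries. The share of all genes that lay so relative to this list was not computed. With libraries scaled to this list, the median log2 change of all tested genes was 0.71. It was 0.77 for Tlr2, 0.74 for Tlr5 and 0.43 for Myd88 there. Over the 30 comparisons of a gene with a marker list, with 3 marker lists chosen after the data were seen, the lowest Benjamini-Hochberg adjusted value was 0.75.

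All 8 B cell markers had negative log2 changes (median -0.94, or -0.33 without wild type 1 and -0.48 without Otud1-/- 1), but limma, edgeR and DESeq2 each called 0 and none had an unadjusted p under 0.05. Their summed counts were 1935, 3800 and 5248 in Otud1-/- libraries and 14054, 4080 and 4849 in wild type libraries, so wild type 1 was the highest and Otud1-/- 1 the lowest, and none was at 0 in any library. Wild type 1 was also the highest library for Tlr7 and Tlr9, and for the mean log2 level of the T cell and dendritic cell lists. Relative to the macrophage and monocyte list, Tlr9 stood at -2.55 ± 0.43 in Otud1-/- libraries and -2.35 ± 0.71 in wild type libraries (SD, n = 3 each; exact permutation p = 0.6). Tlr7 stood at -3.04 ± 1.02 in Otud1-/- libraries and -2.68 ± 0.96 in wild type libraries relative to that list (exact permutation p = 0.7). Relative to the B cell list, Tlr9 stood at -2.75 ± 0.38 in Otud1-/- libraries and -2.78 ± 0.39 in wild type libraries (SD, n = 3 each; exact permutation p = 0.7), and Tlr7 at -3.23 ± 0.91 in Otud1-/- libraries and -3.11 ± 0.32 in wild type libraries (exact permutation p = 0.9). With wild type 1 and Otud1-/- 1 both left out, the median log2 change of the B cell list was 0.13, and those of Tlr7 and Tlr9 were -0.57 and -0.31.

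The other marker lists had these values. Over all genes tested, 9.97% were lower at an unadjusted p under 0.05 and 19.5% passed in either direction. DESeq2 called 8.4% of all genes, and 4.42% lower. The 8 T cell markers had a median log2 change of -0.33 (-0.67 to 0.15 without 1 library, positive without wild type 1) with none called by limma, edgeR or DESeq2 or at an unadjusted p under 0.05, and summed counts of 542 to 1051 in Otud1-/- libraries and 693 to 2041 in wild type libraries. The 8 dendritic cell markers had a median of -0.57 (-0.86 to -0.30 without 1 library), with none called by the 3 tools, 2 lower at an unadjusted p under 0.05, and sums of 1097 to 2013 in Otud1-/- and 1603 to 2250 in wild type. The 10 neutrophil markers had a median of 0.12 (-0.48 to 0.45 without 1 library). Limma (0.949% of all genes) and edgeR (0.7%) each called 1 lower (Ly6g, log2 change -1.66). DESeq2 called 3, all lower (Ly6g, S100a8 and Csf3r). At an unadjusted p under 0.05 in limma, 3 were lower and 2 higher (Retnlg and Ngp). The sums of the 10 neutrophil markers were 3185 to 3794 in Otud1-/- and 7298 to 10142 in wild type. Without Ly6g they were 793 to 1577 in Otud1-/- and 1022 to 2189 in wild type, and Ngp and Camp were at 0 in some libraries. The 15 epithelium markers had a median of -0.50, with 0 called by limma or edgeR, 9 lower at an unadjusted p under 0.05, 5 called lower by DESeq2, and sums of 309551 to 455291 in Otud1-/- and 480173 to 570845 in wild type. The 10 smooth muscle markers moved the other way, with a median of 1.15. Limma called 3 (0.949% of all genes), edgeR 3 (0.7%) and DESeq2 9 (8.4%), none of them lower. All 10 were higher at an unadjusted p under 0.05, beside 19.5% of all genes in either direction. The genotypes overlapped for none of the 10, beside 26.3% of all genes without overlap in either direction. The sums of these markers were 59406 to 122774 in Otud1-/- and 36076 to 39596 in wild type. The 10 fibroblast and endothelial markers had a median of -0.04, with none called by the 3 tools, 2 higher at an unadjusted p under 0.05, and sums of 10787 to 15149 in Otud1-/- and 12159 to 13960 in wild type. Relative to the epithelium list in the same library, Tlr4 stood at -5.01 ± 0.24 in Otud1-/- libraries and -4.64 ± 0.21 in wild type libraries (SD, n = 3 each; exact permutation p = 0.2; difference -0.37), and Cd14 at -2.83 ± 0.81 in Otud1-/- libraries and -2.22 ± 0.20 in wild type libraries (exact permutation p = 0.2; difference -0.61). Tlr5 stood at -9.16 ± 0.12 in Otud1-/- libraries and -9.57 ± 0.26 in wild type libraries (exact permutation p = 0.1), without overlap. The share of all genes without overlap relative to that list was not computed. With libraries scaled to that list, the median log2 change of all tested genes was 0.36, and that of Tlr5 was 0.40. For the other 7 genes the differences between the genotypes (Otud1-/- minus wild type) relative to that list ranged from -0.73 for Tlr7 to 0.41 for Tlr2, with exact permutation p-values of 0.2 or more. The part of the other lists of this paragraph in the values of the receptors was not tested.

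**Figure D4:**
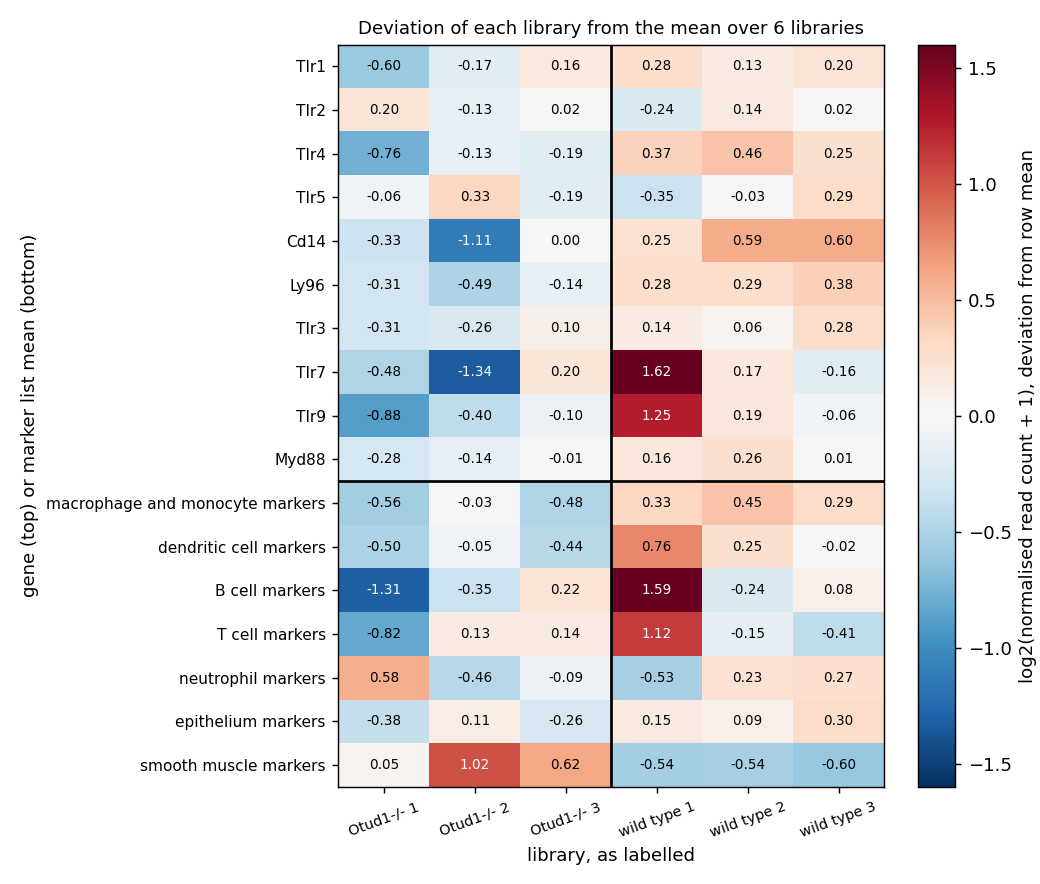
Deviation of each library from the mean over the 6 libraries, in log2 units of the normalised count with 1 added, for each of the 10 genes (top) and for the mean of 7 cell type marker lists (bottom), with Otud1-/- libraries left and wild type libraries right. Wild type 1 is high for Tlr7 (1.62), Tlr9 (1.25), B cell markers (1.59), T cell markers (1.115) and dendritic cell markers (0.76). Smooth muscle markers are above their mean in the 3 Otud1-/- libraries.

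The direction of several genes changed with the scaling of the libraries. Scaling shifted the median log2 change of all tested genes to 0.22 (total reads), 0.36 (epithelium list), 0.71 (macrophage and monocyte list), 0.93 (B cell list) and -1.06 (smooth muscle list), the last 2 chosen after the data were seen. Scaled to the macrophage and monocyte list, Tlr4 was at -0.01, Cd14 at -0.24 and Ly96 at 0.08, and Tlr2 was called higher at 0.77 (limma adjusted p = 0.0155), near the median of all genes there, where 9400 genes were called and 1.33% of them were lower. Scaled to the smooth muscle list, 9 of the 10 were called lower, as were 12101 of all genes tested, and Tlr2 was at -1.06. A scaling factor moves all genes of a library alike, so each gene's distance from that median is nearly fixed by construction. Quantile normalisation, which is not a single factor, put Tlr5 at -0.10, Tlr1 at -0.31 and Cd14 at -0.75.

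**Figure D5:**
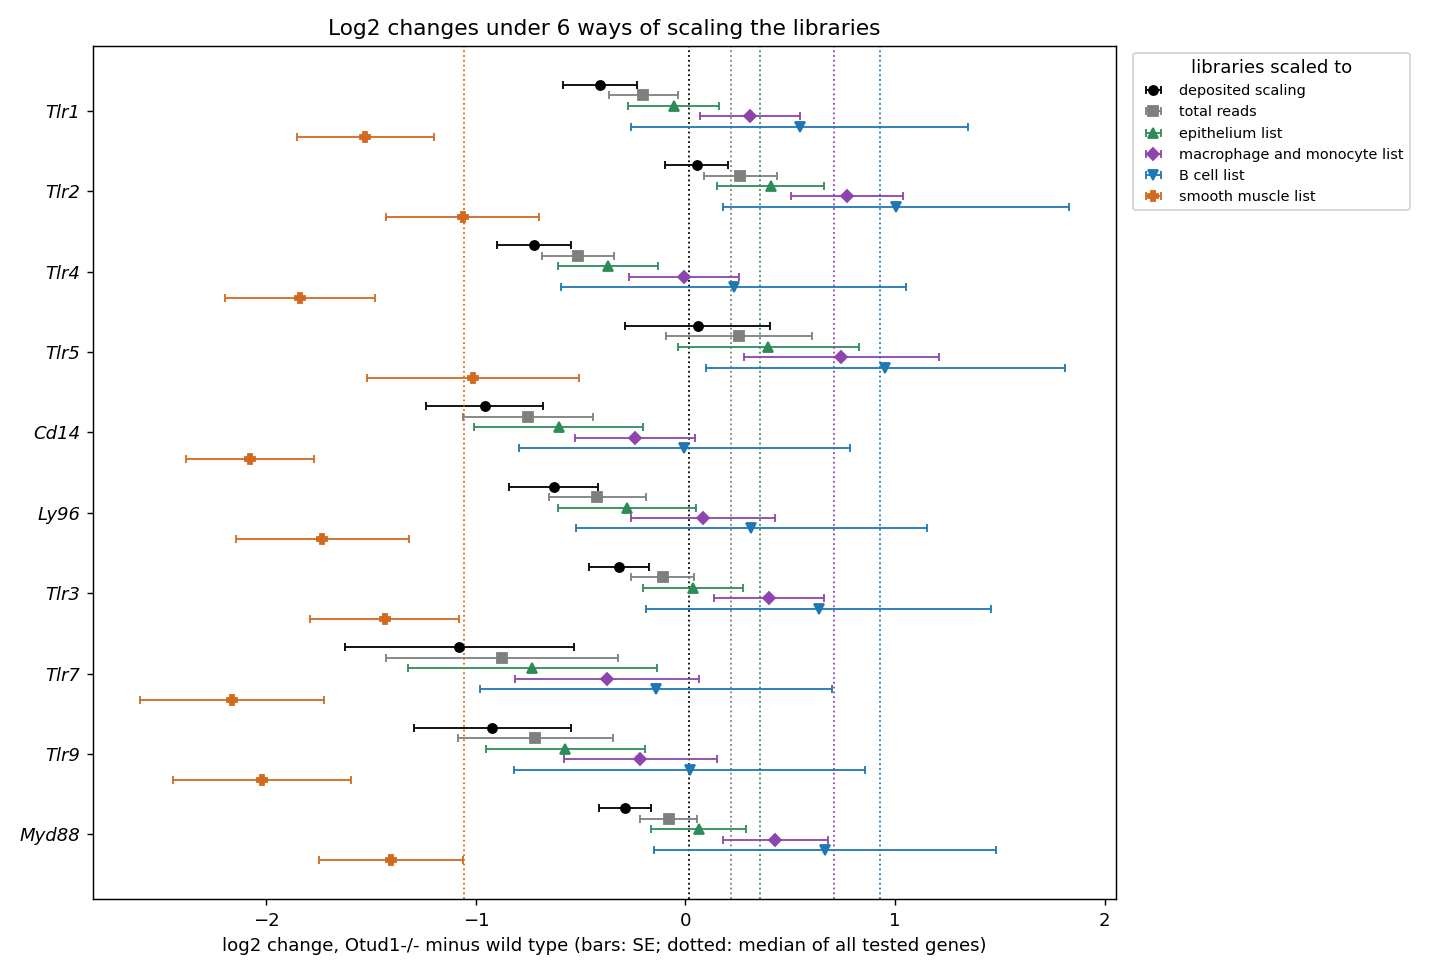
Log2 changes (Otud1-/- minus wild type, points with SE bars) of the 10 genes with libraries scaled in 6 ways, and the median of all tested genes under each (dotted lines of the same colour). Each gene moves with the dotted line, as a common factor must make it: Tlr4 is at -0.72 with the deposited scaling, -0.01 with the macrophage and monocyte list and -1.84 with the smooth muscle list.

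Across the 6 libraries the 10 genes did not share 1 pattern. Likeness was measured as the root mean square difference of centred log2 levels, in which 0 is the same pattern. The closest pair was Tlr1 and Tlr3 at 0.15, with Tlr3 and Myd88 also at 0.15, and the most distant was Tlr5 and Tlr7 at 1.10. Cd14 was nearest to Ly96 among the 10, at 0.30, and Tlr7 to Tlr9 at 0.46.

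Among the 12247 other genes compared (12248 for Tlr5), the nearest to Cd14 was Wfdc17 at 0.09, a gene of macrophages, followed by Grin1os and Rasd2. Nearest to Tlr4 were Ovol1 at 0.03, an epithelial transcription factor, then Erlin1 and Ptp4a1. Nearest to Tlr9 were Ncf1 at 0.07, a subunit of the phagocyte oxidase, then Dock10 and Arhgap30. Nearest to Tlr7 were the interferon-inducible genes Ifi206 at 0.19, Ifi213 and Ifi209, and nearest to Tlr1 were Nmi at 0.06, Epsti1 and Snap29. Nearest to Tlr2 were Khdc4, Lyrm2 and Ppt2, to Tlr3 Tmub1, Ndufb10 and Slc5a1, to Tlr5 Kctd6, Fbxo36 and Serpinf1, to Ly96 Zfp429, Mcfd2 and Slc52a3, and to Myd88 Appl1 and Fgfr1op2. With 6 libraries that share the 2 genotypes and their depth, such likeness is a description only.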

How the data were processed

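Bulk RNA-seq of 3 libraries labelled Otud1-/- and 3 labelled wild type was read from 1 table of the whole series. The authors deposited a normalised signal per Ensembl gene for build mm10 (per the submitters' processing notes). Which aligner, counter and strand setting they used is not stated in the sources used here. Every value was a whole multiple of 1 step per library (100% within 0.001), and the steps equalled the reciprocals of DESeq2 size factors, so read counts were recovered from the authors' values for count tests. Normalised read counts are not scaled for length; levels between genes were divided by exon length from the mm10 annotation.

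The test covered 21281 genes that reached a value of 1 in 3 or more libraries (93 were left out), with limma 3.58.1 (R 4.3.3; trend and robust) on log2(value + 1), where fold changes of low genes are understated, at a Benjamini-Hochberg adjusted p under 0.05 over all genes, two-sided. The code was tested on simulated data. edgeR 4.0.16 (149 genes called) and DESeq2 1.42.0 (1412 called; 4571 genes had no adjusted p) were run on recovered reads. Other alternatives were pseudocounts, filters, scalings, sample weights, a replicate block and leaving out libraries.

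Symbols were found for 21317 genes; 57 had none. The genes, lists and tests were chosen with earlier results of these data known. Named list genes were, per pathway list, every called gene up to 4, otherwise the 2 with the smallest unadjusted p, and the first 2 of each marker list, of which those with values bearing on a result are given. Nearest patterns were the 3 named genes with a mean of at least 50. A few genes that these rules named are not reported here. Promoter windows came from RefSeq (GRCm38.p6). No libraries were duplicates (lowest chi-square per degree of freedom 15.4).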

Additional observations from a re-analysis of the deposited data

How the results depend on the processing

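The 202 genes called with the main settings became 118 with a pseudocount of 0.1, 104 with a mean of at least 10, 416 with scaling to total reads, 1093 with the epithelium list, 9400 with the macrophage and monocyte list, 564 with sample weights, 1412 with DESeq2, 393 with wild type 1 and Otud1-/- 1 both left out and 877 at an adjusted p under 0.1. They became 0 in limma without trend and robust (3499 at an unadjusted p under 0.05). After the data were seen, scaling to the B cell list (73 called) and to the smooth muscle list (12192 called) were added. Leaving out 1 library gave 10 to 351. Dropping Otud1-/- 1, 2 or 3 left 334, 351 or 116 called, and dropping wild type 1, 2 or 3 left 35, 11 or 10. Same-numbered libraries had deviations correlated at -0.26, -0.10 and -0.09, and differently numbered ones at -0.08 to 0.16. The numbers thus showed no sign of a pairing, but so few libraries cannot exclude one. With the replicate block 18 genes and 0 of the 10 receptor genes were called. In that fit 3 of the 10 had an unadjusted p under 0.05, beside 2968 of all 21281 genes tested. The cause of these differences was not tested.

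Of the 10 genes, 1 was called with the macrophage and monocyte list (Tlr2), 9 with the smooth muscle list, 2 with DESeq2 (Tlr4 and Cd14) and 1 at an adjusted p under 0.1 (Tlr4); 0 were called without any 1 library (0 to 0), nor under the other settings. Otud1 passed the threshold with the epithelium list (1.72), the macrophage and monocyte list (2.08), sample weights (1.59), DESeq2 (1.29), both libraries numbered 1 left out (1.89) and an adjusted p under 0.1 (1.37); without 1 library its log2 change was 1.14 to 1.78.

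Directions turned as follows, as log2 changes. Scaled to total reads, Pdgfra was at 0.0044. After quantile normalisation Tlr5 was at -0.10, Epcam 0.24 and Cdh1 0.21. With the epithelium list Tlr3 was at 0.035, Myd88 0.064, Zbtb46 0.027, Cd3d 0.13, Epcam 0.030, Cdh1 0.13 and Pdgfra 0.15. With the macrophage and monocyte list Tlr1 was at 0.31, Tlr3 0.40, Ly96 0.082, Myd88 0.43, Lgmn 0.16, Ctss 0.026, Ikbke 0.30, Ticam1 0.14, Tnip3 0.12, Nfkbiz 0.046, Flt3 0.025, Zbtb46 0.38, Cd3e 0.0046, Cd3d 0.49, Epcam 0.39, Cdh1 0.49 and Pdgfra 0.51. With the B cell list Tlr1 was at 0.54, Tlr3 0.63, Tlr4 0.23, Tlr9 0.020, Ly96 0.31, Myd88 0.66, Lgmn 0.40, Ctss 0.26, Ikbke 0.54, Ticam1 0.37, Tnip3 0.36, Il1b 0.14, Nfkbiz 0.28, Csf1r 0.14, Flt3 0.26, Zbtb46 0.61, Ms4a1 0.19, Cd3e 0.24, Cd3d 0.72, Epcam 0.63, Cdh1 0.73 and Pdgfra 0.75. With the smooth muscle list Tlr2 was at -1.06, Tlr5 -1.01, Acta2 -0.064 and Col1a1 -0.68. With sample weights Tlr5 was at -0.027. Without 1 library Tlr2 ranged from -0.051 to 0.14, Tlr5 from -0.10 to 0.22 and Cd3d from -0.58 to 0.27. With both libraries numbered 1 left out Tlr2 was at -0.14, Tlr5 -0.060, Ms4a1 0.16, Cd3d 0.52 and Pdgfra 0.036. Tlr7 and Cd14 had a negative log2 change in every alternative run. Of Tnip3, Nos2, Il1b and Nfkbiz, none passed in limma without trend and robust, and Nos2 alone passed with the replicate block. Depth limits the genes with few reads, Tlr5, Tlr7 and Tlr9 among the 10.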
